A study of Mus musculus with 12 samples.

Results

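Adgre1, Cd163, Vcam1, Spic, Mrc1 and Cd5l are genes used to recognise red pulp macrophages, the resident macrophages of the spleen. They were chosen by name with earlier results of these data known, as were the other gene lists used below. All 6 were found among the 16805 genes of the neutrophil table and among the 16954 genes of the monocyte table. Expression was measured by RNA-seq in 12 libraries of cells drawn from the spleens of wild-type mice, in 4 groups of 3. The Ly6G-selected cells, labelled neutrophils, came from untreated tumor-bearing mice (control) and from mice 12 h after cryo-thermal therapy, abbreviated CTT, in which a tumor is frozen and heated locally. The CCR2-selected cells, labelled monocytes, came from mice 5 days after CTT, either with CTT alone or with an added anti-Ly6G antibody, which is used to deplete neutrophils. All monocyte libraries therefore came from treated mice, and the monocyte comparison is between CTT with and CTT without the antibody. The sources used here do not name the tumor, the age of the mice, the purity of the selected cells or the number of mice behind each library. The libraries were labelled biological replicates, and a p-value here sets a difference between groups only against the variation between such libraries.

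Red pulp macrophages take up aged red blood cells, break down their heme and return the iron to the blood. Their development depends on the transcription factor SPI-C, encoded by Spic, which heme induces through degradation of the repressor BACH1. They are recognised on sections and in flow cytometry by F4/80, the product of Adgre1, and by VCAM1, an adhesion molecule that also holds developing red cells to the macrophages of erythroblastic islands. CD163 is a scavenger receptor that in human cells takes up hemoglobin bound to haptoglobin. MRC1, also called CD206, is a mannose receptor for glycoproteins. CD5L, also called AIM, is a secreted scavenger receptor cysteine-rich protein of tissue macrophages that circulates with IgM. None of these genes belongs to this cell type alone. Monocytes and eosinophils also carry F4/80, and endothelial cells can express Vcam1 and Mrc1.

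The 6 genes are protein coding and lie apart from each other on GRCm38 (mm10). Adgre1 (Entrez gene 13733) lies on the plus strand of chromosome 17 from 57358581 to 57483529, and Cd163 (93671) on the plus strand of chromosome 6 from 124304636 to 124330529. Vcam1 (22329) lies on the minus strand of chromosome 3 from 116110020 to 116129688, where the annotated antisense gene Gm43109 overlaps it. Its counts could include antisense reads, since the sources used here do not state whether counting used strand. Cd5l (11801) lies on the plus strand of the same chromosome from 87357881 to 87371074, Spic (20728) on the minus strand of chromosome 10 from 88675269 to 88683023, and Mrc1 (17533) on the plus strand of chromosome 2 from 14229414 to 14332023. The microRNA gene Mir511 lies within Mrc1 on the same strand.

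Promoter sequences of 4 members, Cd163, Spic, Mrc1 and Cd5l, were taken from RefSeq (GRCm38.p6), each with 250 bases before the gene start and 50 after it. The promoters of Mrc1 and Cd5l are shown because Mrc1 fell in the monocyte comparison described later and Cd5l did not pass the test, and because they alone among the 4 held the letters GAGGAA, the core bound by PU.1 and SPI-C. Capitals mark that core, which stands on the opposite strand in every case and so reads TTCCTC.
Mrc1, chr2:14229164-14229463, plus strand: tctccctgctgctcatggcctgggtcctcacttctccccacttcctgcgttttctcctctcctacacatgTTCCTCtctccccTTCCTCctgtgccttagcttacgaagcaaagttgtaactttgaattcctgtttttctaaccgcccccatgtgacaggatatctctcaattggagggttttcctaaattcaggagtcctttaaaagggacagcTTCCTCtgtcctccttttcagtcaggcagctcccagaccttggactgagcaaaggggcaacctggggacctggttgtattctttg
Cd5l, chr3:87357631-87357930, plus strand: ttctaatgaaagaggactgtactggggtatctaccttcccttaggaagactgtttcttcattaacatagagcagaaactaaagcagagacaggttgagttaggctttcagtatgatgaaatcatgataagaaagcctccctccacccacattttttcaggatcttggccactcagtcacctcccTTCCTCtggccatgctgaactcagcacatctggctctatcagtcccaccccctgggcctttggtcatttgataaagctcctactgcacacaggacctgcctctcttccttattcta

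The core began at positions −180, −167 and −35 from the gene start in Mrc1 and at −66 in Cd5l. It was present on either strand in 28.3% of 32851 mouse promoter windows of the same length. The AP-1 letters TGANTCA (7.81% of windows), the antioxidant response element core TGACNNNGC (12.4%) and the NF-kB motif (0.411%) were found on neither strand of the 4 promoters. A match is a description of the sequence, and the binding of any factor was not measured.

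Each library held between 30942849 and 35956571 counted reads, and the member with the lowest count in any library was Cd163, so counting error was small beside the spread between libraries. The selected cells carried transcripts of several cell types. Ly6g, which encodes the selecting antigen of the neutrophils, averaged 12.4 ± 2.66 CPM (read counts scaled to library size; SD, n = 3) in control neutrophils, 20.1 ± 6.85 CPM in CTT neutrophils, 13.1 ± 2.16 CPM in CTT monocytes and 53.3 ± 7.09 CPM in anti-Ly6G monocytes. Its mean in control neutrophils was thus not above that in CTT monocytes, and both cell names are used here as the labels give them. Ccr2, the selecting antigen of the monocytes, averaged 101 ± 22.2 and 176 ± 43.4 CPM in the neutrophil groups and 208 ± 39.5 and 486 ± 70.0 CPM in the monocyte groups. Control replicate 1 of the neutrophils stood apart with 13636 CPM of summed erythroid markers, against at most 2261 CPM in any other library. Its 6 members summed to 1396 CPM, and those of replicates 2 and 3 to 1340 and 1301 CPM. Replicate 1 of the CTT monocytes had the highest value of every member, with a sum of 6630 CPM against 4000 and 4408 CPM in the other CTT monocyte libraries. Replicate 1 of the CTT neutrophils was the lowest of the 12 libraries for Adgre1, Mrc1 and Cd5l.

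All 6 members were highest in CTT monocytes, intermediate in anti-Ly6G monocytes and lowest in the cells labelled neutrophils. Summed over the members, the level averaged 5013 ± 1416 CPM in CTT monocytes (SD, n = 3), 3021 ± 241 CPM in anti-Ly6G monocytes, 1436 ± 131 CPM in CTT neutrophils and 1345 ± 47.8 CPM in control neutrophils. In each member's order of groups, the libraries of anti-Ly6G monocytes lay above those of both neutrophil groups without overlap. The share of all tested genes that did so was not computed, so how unusual this order is was not tested. For CTT monocytes above CTT neutrophils, a different pair of groups, the share without overlap was 28.1%. The selecting antibody and the time after CTT differ together between the 2 cell types. The CTT and anti-Ly6G monocyte groups overlapped for Cd5l. The other 5 were lower with the antibody without overlap, as was so for 15.4% of tested genes. The control and CTT neutrophil groups overlapped for Adgre1, Vcam1, Mrc1 and Cd5l. Cd163 and Spic were higher after CTT without overlap, as was so for 13.6% of tested genes. In libraries of whole populations, fewer cells of a type and less RNA per cell cannot be told apart, and this holds for every level given here.

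**Figure D1:**
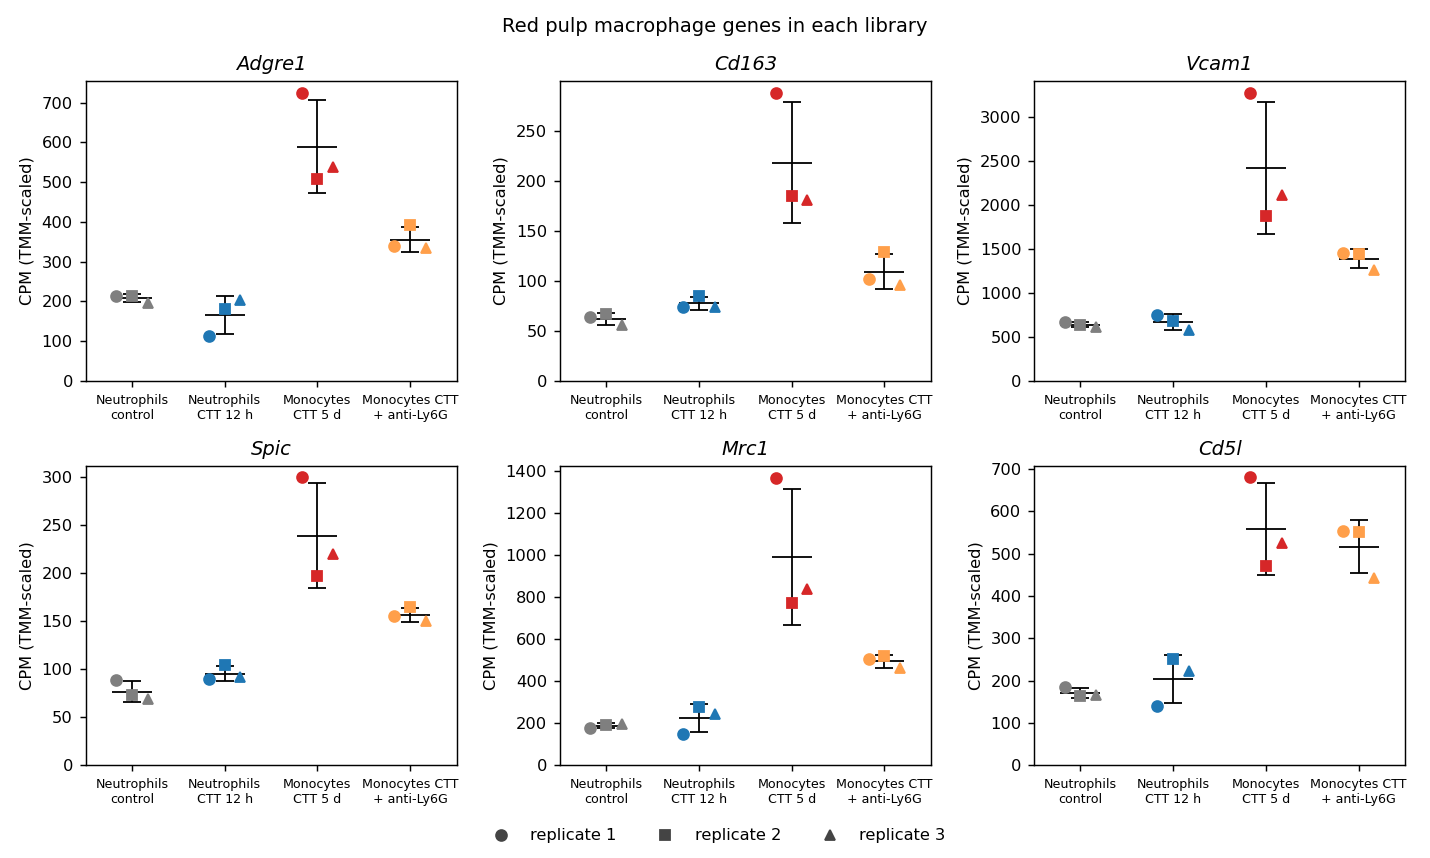
Level of each member in each of the 12 libraries, as CPM scaled over all libraries, with 1 panel per gene and the vertical axes starting at 0. Points are libraries with the marker shape giving the replicate number, horizontal bars are group means and whiskers the SD of 3 libraries. CTT monocytes stand highest in every panel, and replicate 1 (circle) is the highest of them each time.

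Per unit of transcript length, in the deposited FPKM, Vcam1 ranked first and Cd163 last of the 6 members in all 12 libraries. Vcam1 averaged 744 ± 223 FPKM in CTT monocytes, where it ranked 51, 108 and 99 among the 15393, 15357 and 15377 genes with a value above 0 in replicates 1, 2 and 3. Cd5l took the second place in 11 of the 12 libraries, with 287 ± 52.8 FPKM in CTT monocytes. Spic (198 ± 42.8 FPKM), Mrc1 (195 ± 62.0) and Adgre1 (184 ± 34.7) differed by less than their SD in that group, and Cd163 stood at 50.7 ± 13.6 FPKM. Mrc1 took the fifth place in 11 of 12 libraries and the third in the remaining library, replicate 1 of the CTT monocytes. In control neutrophils the 6 genes spanned 13.4 ± 1.44 FPKM for Cd163 to 183 ± 5.15 FPKM for Vcam1, so the cells labelled neutrophils also carried all 6 transcripts.

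With anti-Ly6G, 5 of the 6 members fell in the monocytes and Cd5l did not pass the test. In the quasi-likelihood test of edgeR, adjusted by the Benjamini-Hochberg method over 13294 genes, 5.12% of all tested genes fell and 10.2% rose in this comparison. The libraries of 15.4% of tested genes were lower with the antibody without overlap between the groups. The median log2 fold change was −0.75 over the 6 members and −0.0044 over all tested genes, while a log2 fold change of −1 would mean a level lower by a factor of 2. The fold changes below come from the monocyte libraries alone, and the CPM are scaled over all 12.

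Spic encodes the transcription factor that red pulp macrophages require. It stood at 300.5, 197 and 220.2 CPM in CTT monocytes and at 156, 165 and 150.5 CPM in anti-Ly6G monocytes. All 3 CTT libraries were above all 3 anti-Ly6G libraries. On the log2 scale Spic fell by 0.59 (SE 0.14, adjusted p by edgeR = 0.0238).

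Among the surface proteins used to identify the cells, Adgre1 read 724, 508 and 537 CPM with CTT alone and 339.7, 392 and 334 CPM with the antibody. The groups did not overlap, and F4/80 mRNA fell by 0.71 on the log2 scale (SE 0.13, adjusted p by edgeR = 0.0081). Vcam1, the adhesion molecule that binds the integrin of developing red cells, read 3269.5, 1868 and 2106 CPM with CTT alone and 1452.5, 1446 and 1262 CPM with the antibody. The lowest CTT library was still above the highest anti-Ly6G library, and the log2 fold change was −0.78 (SE 0.18, adjusted p by edgeR = 0.0235).

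The scavenger receptor gene Cd163 and the mannose receptor gene Mrc1 had the largest fitted falls. Cd163 read 288, 185 and 181 CPM with CTT alone and 102, 129 and 96.2 CPM with the antibody. This is a log2 fold change of −0.98 with SE 0.18 (adjusted p by edgeR = 0.00883), without overlap between the groups. Mrc1 read 1367, 771 and 839 CPM and then 509, 519.7 and 462 CPM. It fell by the same amount on the log2 scale, 0.98 (SE 0.19, adjusted p by edgeR = 0.0105), and again the groups did not overlap.

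Cd5l, the secreted member, read 681, 472 and 524 CPM with CTT alone and 554, 552 and 443 CPM with the antibody. The groups overlapped, and the highest and the lowest values were those of CTT replicate 1 and anti-Ly6G replicate 3. Its log2 fold change was −0.09 (SE 0.14, adjusted p by edgeR = 0.688) with a 95% interval of −0.40 to 0.22. That interval does not contain the fitted change of any of the other 5 members. Those changes have errors of their own, so this is not a test of a difference between genes.

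The counts of members depended on which library was kept. Without replicate 1 of the CTT monocytes, the library with the highest values, the same 5 members fell, with log2 fold changes of −0.54 for Adgre1, −0.73 for Cd163, −0.50 for Vcam1, −0.39 for Spic and −0.68 for Mrc1. Adgre1, Cd163 and Mrc1 passed whichever library was left out. Vcam1 and Spic missed the threshold in edgeR when any anti-Ly6G library was left out, with adjusted p of 0.0732, 0.0672 and 0.0809 for Vcam1 and 0.0854, 0.0636 and 0.0789 for Spic without replicates 1, 2 and 3. Spic also missed it without replicate 3 of the CTT monocytes (adjusted p by edgeR = 0.0513). The directions of these 2 genes were the same in all of those fits.

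**Figure D2:**
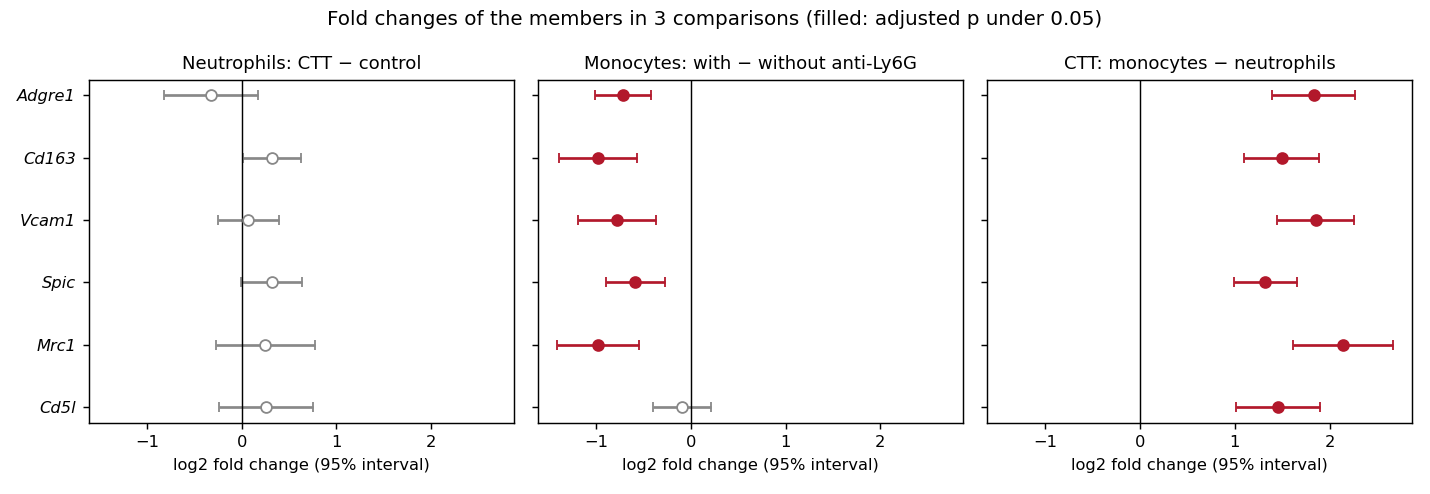
Log2 fold change of each member (points) with its 95% interval (bars) in 3 comparisons on a common axis: CTT against control neutrophils, monocytes with against without anti-Ly6G, and CTT monocytes against CTT neutrophils. Filled red points passed an adjusted p of 0.05 in edgeR. The 6 neutrophil intervals have no filled point, 5 of 6 members are filled and negative in the middle panel, and all 6 are filled and positive in the right panel.

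Levels within a library show how the members moved against each other. Relative to Cd5l in the same library, each of the other 5 members stood lower in all 3 anti-Ly6G monocyte libraries than in any CTT monocyte library. Mrc1 went from a log2 ratio to Cd5l of 0.80 ± 0.18 (SD, n = 3) to −0.05 ± 0.10, and Cd163 from −1.37 ± 0.15 to −2.25 ± 0.17. Spic had the smallest of these differences, from −1.23 ± 0.04 to −1.71 ± 0.14. Of all 15 pairs of members, 12 had ratios that did not overlap between the monocyte groups. An exact permutation test (two-sided) gave p = 0.1 for each of the 12, the smallest value that 3 against 3 libraries allow, and 0.125 after adjustment over the 15 pairs. The pairs share genes and libraries, so they are not independent, and the ratios to Cd5l in part repeat the fold changes above. The share among pairs of other genes was not computed.

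**Figure D3:**
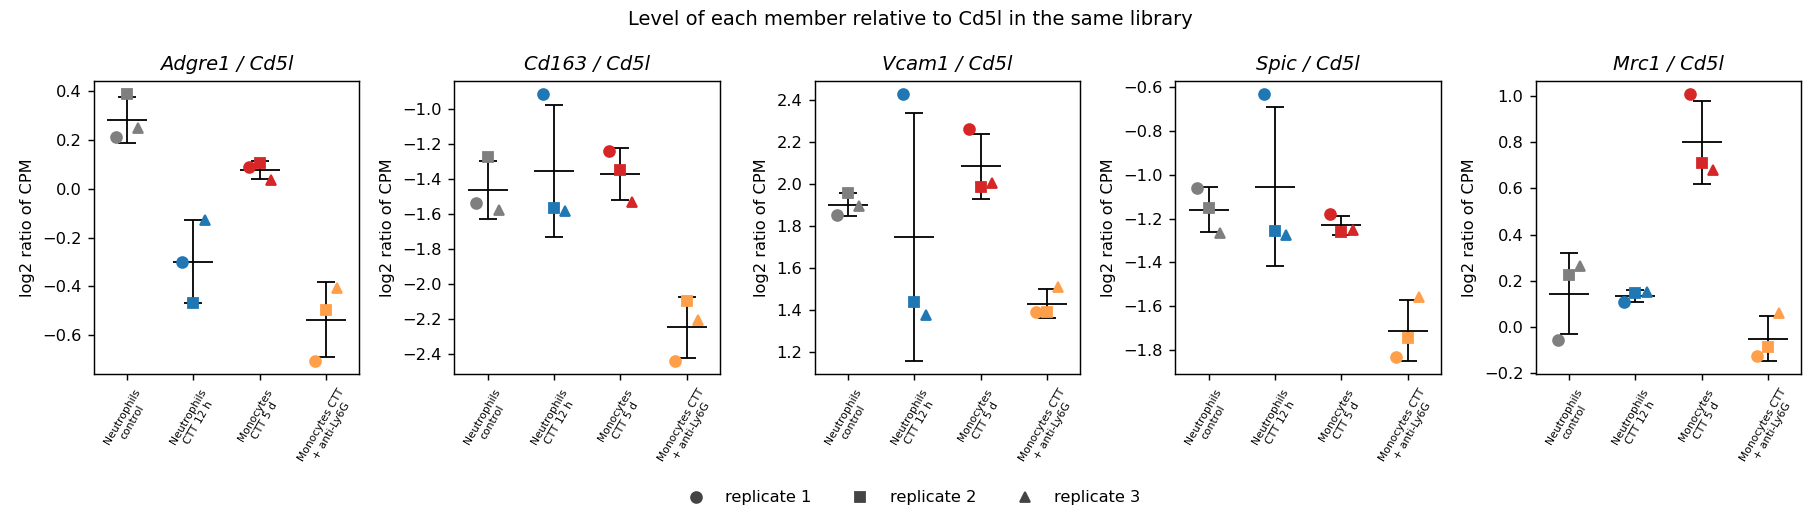
Log2 ratio of the CPM of each of 5 members to that of Cd5l in the same library, by group. Points are libraries (shape by replicate number), bars group means and whiskers the SD of 3 libraries. In all 5 panels the anti-Ly6G monocytes lie below the CTT monocytes without overlap, and CTT neutrophil replicate 1 lies far above the other CTT neutrophils for Cd163, Vcam1 and Spic.

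Other genes of red pulp macrophage function fell with the members in part. Of 24 such genes tested, 13 fell with anti-Ly6G, 0 rose and 11 did not pass the test, and the median log2 fold change was −0.47. Those with the smallest p were Fcna, which encodes the lectin ficolin A (−0.81, SE 0.15), the transferrin gene Trf (−0.84, SE 0.17), the potassium channel gene Kcna2 (−0.70, SE 0.14) and Axl, a receptor for apoptotic cells (−0.87, SE 0.19). Their edgeR adjusted p lay between 0.0097 and 0.0169. Slc40a1, the iron exporter ferroportin, went from 1723 ± 350 CPM (SD, n = 3) to 1202 ± 11.6 CPM and fell by 0.50 on the log2 scale (SE 0.13, adjusted p by edgeR = 0.0321). The heme-degrading enzyme gene Hmox1 (−0.24, SE 0.14, adjusted p by edgeR = 0.271) and the ferritin genes Ftl1 (−0.08, SE 0.10, adjusted p = 0.659) and Fth1 (−0.03, SE 0.09, adjusted p = 0.853) did not pass. The heme transporter gene Slc48a1 was also short of the threshold in edgeR (−0.45, SE 0.15, adjusted p = 0.0769). Ferritin genes have many processed copies, so their counts are uncertain. The number of the 24 that fell was 2, 4 and 3 without anti-Ly6G replicates 1, 2 and 3, 8 without CTT replicate 3, and up to 17 in the remaining fits that left out a library.

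**Figure D4:**
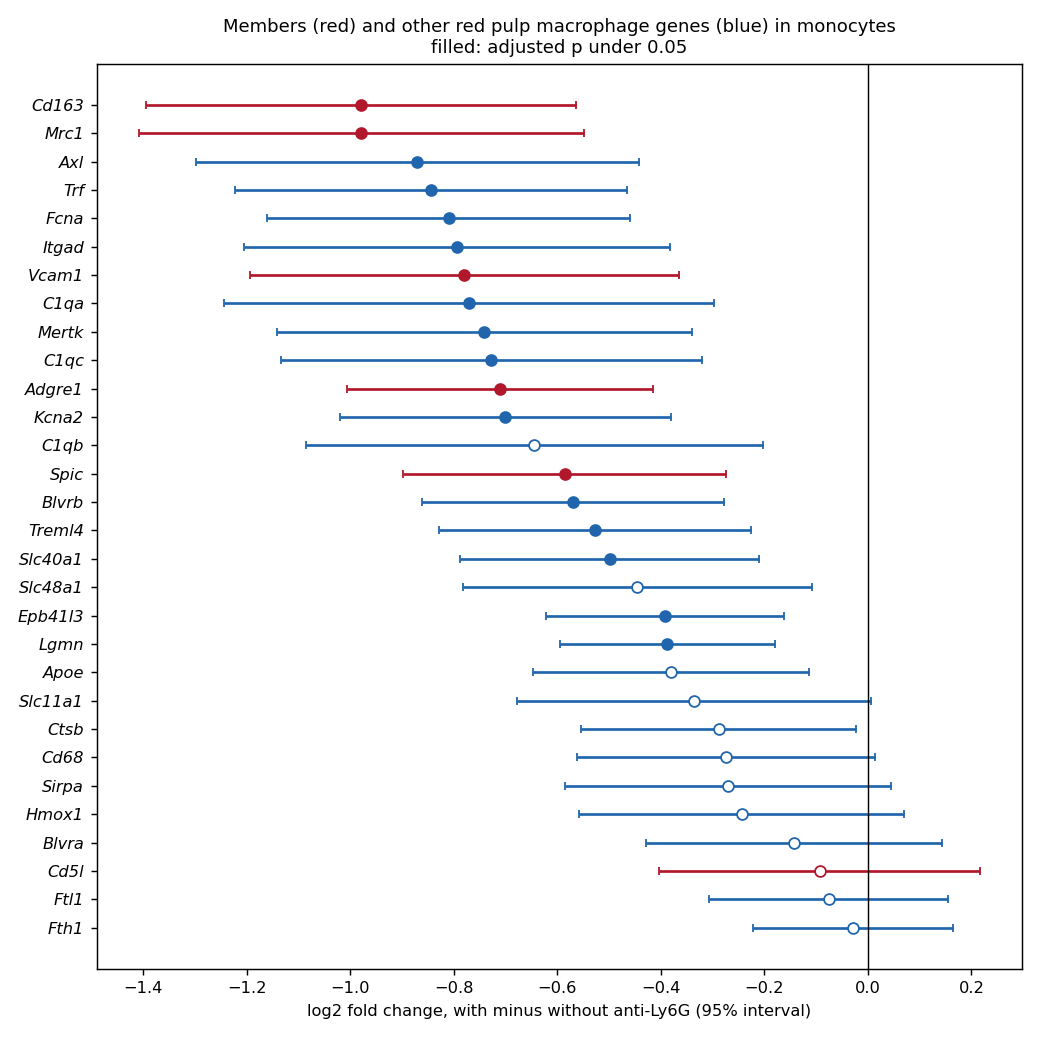
Log2 fold change with 95% interval in monocytes, with minus without anti-Ly6G, for the 6 members (red) and 24 other red pulp macrophage genes (blue), sorted by value. Filled points passed an adjusted p of 0.05 in edgeR. All fitted values are below 0, with Cd163 and Mrc1 lowest and Cd5l, Ftl1 and Fth1 among the nearest to 0.

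The regulators divided by direction. Of 20 tested genes that regulate the development of these cells, 4 rose and 7 fell with anti-Ly6G, with a median of −0.25. Spi1, which encodes PU.1, rose by 0.57 on the log2 scale (SE 0.06, adjusted p by edgeR = 0.000501), Bach1, the repressor of Spic, by 0.67 (SE 0.07, adjusted p = 0.000583), Cebpb by 0.65 (SE 0.09) and Nfe2l2, the activator of heme and antioxidant genes, by 0.38 (SE 0.06). Among those that fell were the macrophage transcription factor gene Maf (−0.55, SE 0.15, adjusted p by edgeR = 0.0386), the M-CSF receptor gene Csf1r (−0.56, SE 0.15, adjusted p = 0.0363) and the nuclear receptor genes Pparg (−0.54, SE 0.15, adjusted p = 0.043) and Nr1h3 (−0.45, SE 0.09, adjusted p = 0.0123). The 4 that rose have roles in many myeloid cells.

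Of 15 genes for partners and processing enzymes of the members, 2 rose and 0 fell. Hp, haptoglobin, whose complex with hemoglobin is the human CD163 ligand, went from 198 ± 27.3 to 572 ± 77.8 CPM (log2 fold change 1.55, SE 0.12, adjusted p by edgeR = 0.000169). Itgb7, an integrin chain that pairs with Itga4 to bind VCAM1, rose by 0.41 (SE 0.08, adjusted p by edgeR = 0.0112). Itga4 itself (0.08, SE 0.07, adjusted p = 0.519) and Adam17, the protease that sheds CD163 and VCAM1 (0.01, SE 0.06, adjusted p = 0.929), did not pass. Of 7 erythroblastic island genes 2 fell, Vcam1 and the erythropoietin receptor gene Epor (−0.71, SE 0.17, adjusted p by edgeR = 0.024). Of the 5 marginal zone macrophage markers, Timd4 fell (−0.82, SE 0.14, adjusted p = 0.0059) and the scavenger receptor gene Msr1 rose (0.62, SE 0.18, adjusted p = 0.0484).

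Transcripts of other cell types moved in the same comparison. Summed inflammatory monocyte markers stood at 2885, 2046 and 2109 CPM with CTT alone and at 4807, 3935 and 3964 CPM with the antibody, with 8 of 9 genes rising. Summed neutrophil markers stood between 4510 and 6094 CPM with CTT alone and between 11925 and 16200 CPM with the antibody, with 11 of 12 genes rising. Neither sum overlapped between the groups. Endothelial markers summed to 507, 368 and 393 CPM and then to 255, 283 and 266 CPM, with Pecam1 and Stab2 falling and Kdr rising among 11 tested genes. Most of that sum was Pecam1, at 189 ± 3.49 CPM (SD, n = 3) and then 126 ± 10.5 CPM, and Stab2, a scavenger receptor gene of sinusoidal endothelium, at 207 ± 70.9 CPM and then 113 ± 12.5 CPM. These 2 genes were lower with the antibody, while the median log2 fold change over the 11 tested endothelial genes was 0.09. In the same list Cdh5 stood at 5.03 ± 1.71 CPM and 4.33 ± 0.17 CPM, and Emcn at no more than 0.326 CPM in any of the 6 libraries. Of 7 eosinophil markers 1 fell, the chemokine receptor gene Ccr3, which made up most of the list, with 306 ± 97.4 of 354 ± 93.1 CPM and then 177 ± 6.13 of 219 ± 10.1 CPM. B cell markers summed to 3153 to 4612 CPM and then to 2416 to 3296 CPM, with 2 of 9 falling. The Kupffer cell marker Clec4f was listed at 0 in all CTT monocyte libraries and at no more than 0.0282 CPM in the others of this comparison. The part of these shifts in the fall of the members was not tested.

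**Figure D5:**
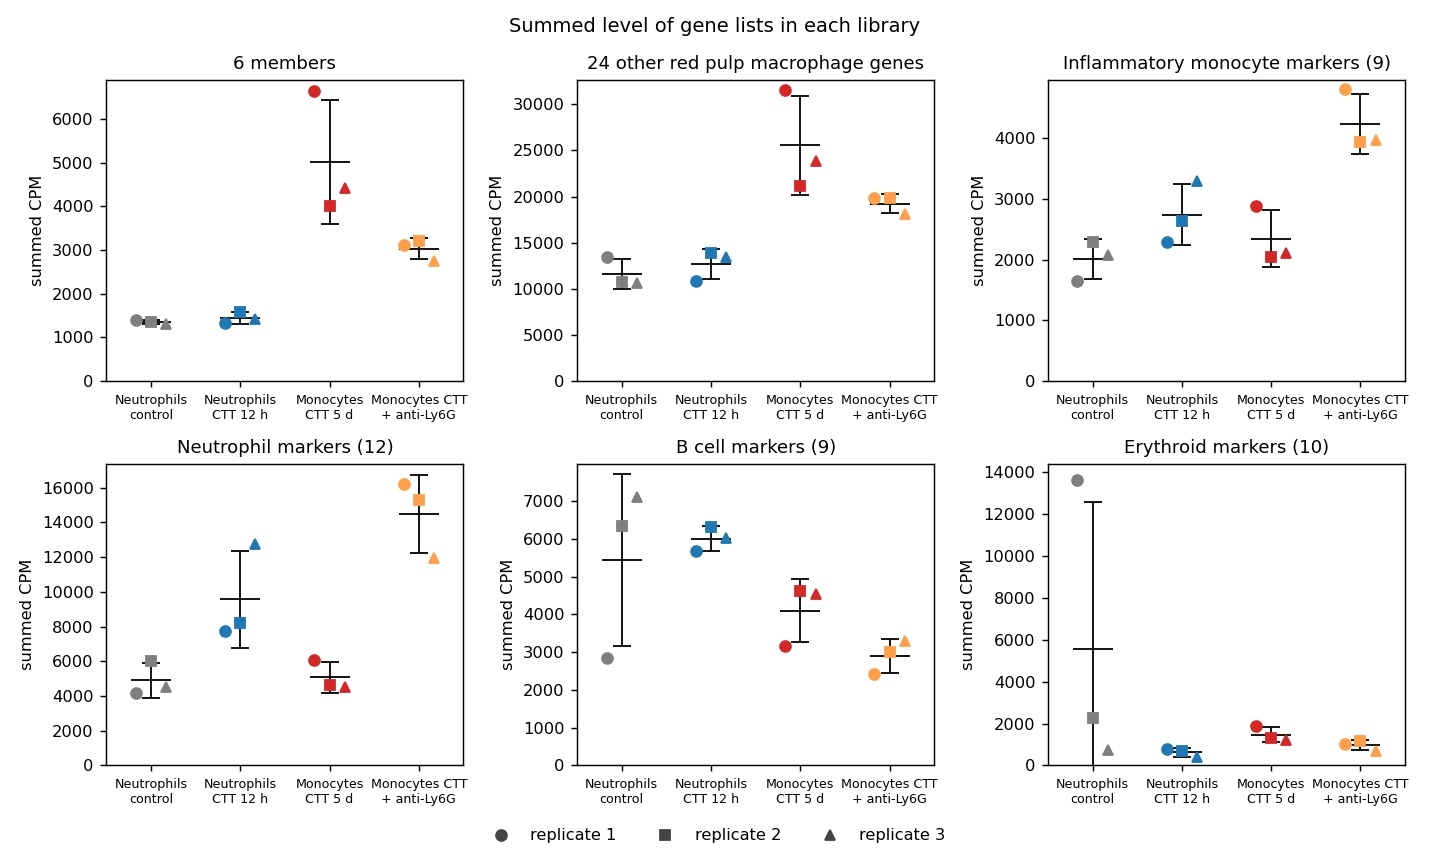
Summed CPM of 6 gene lists in each library, with vertical axes from 0: the members, 24 other red pulp macrophage genes, and markers of inflammatory monocytes, neutrophils, B cells and erythroid cells. Points are libraries (shape by replicate number), bars means and whiskers the SD of 3 libraries, clipped at 0 for the erythroid markers of control neutrophils. From CTT to anti-Ly6G monocytes both macrophage panels go down and the inflammatory monocyte and neutrophil panels go up.

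In the Ly6G-selected cells, none of the 6 members passed the test 12 h after CTT (0 rose and 0 fell), where 0.567% of 13058 tested genes rose and 0 fell in the quasi-likelihood test of edgeR, adjusted by Benjamini-Hochberg. In edgeR without adjustment, 1830 genes passed 0.05, among them Cd163 of the members. DESeq2 called 455 genes higher and 107 lower over all genes, and none of the members. The members were not called without control replicate 1 or without CTT replicate 1 either. The members' median log2 fold change was 0.25, against −0.02 over all tested genes.

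Cd163 and Spic were the members whose groups did not overlap, as was so for 13.6% of tested genes in that direction. Cd163 read 63.6, 67.3 and 55.4 CPM in control and 73.7, 84.6 and 74.2 CPM after CTT, a log2 fold change of 0.32 with SE 0.13 (adjusted p by edgeR = 0.35) with a 95% interval of 0.02 to 0.63. Spic read 88.7, 73.2 and 68.8 CPM and then 90.0, 105 and 91.8 CPM, a log2 fold change of 0.32 with SE 0.14 (adjusted p by edgeR = 0.358). The highest control library of Spic was close to the lowest CTT library, so the separation was narrow.

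Vcam1 was the member with the smallest fitted change. It read 667, 633 and 616 CPM in control and 751, 678 and 576 CPM after CTT, with a log2 fold change of 0.07 with SE 0.13 (adjusted p by edgeR = 0.809), and its sign turned to −0.02 without CTT replicate 1, while it was 0.17 without CTT replicate 3. Adgre1 was the only member with a negative value. It read 214, 213 and 197 CPM in control and 113, 181 and 203 CPM after CTT (log2 fold change −0.32, SE 0.21, adjusted p by edgeR = 0.466, interval −0.82 to 0.17), with overlap between the groups. Its fitted value lay between −0.49 without CTT replicate 3 and −0.11 without CTT replicate 1.

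Mrc1 and Cd5l spread in the same way. Mrc1 read 178, 191 and 199 CPM in control and 150.1, 277 and 246 CPM after CTT (log2 fold change 0.25, SE 0.22, adjusted p by edgeR = 0.584). Cd5l read 185, 163 and 165 CPM and then 139, 250.4 and 222 CPM (0.26, SE 0.21, adjusted p by edgeR = 0.561). Without CTT replicate 1 their values were 0.47 and 0.47, and without CTT replicate 2 they were 0.08 and 0.09. In both, CTT replicate 1 was below every control library and the other CTT libraries were above them. That library was also the lowest of the 6 for Adgre1. For Cd163 (73.7 CPM, next 74.2) and Spic (90.0 CPM, next 91.8) it was narrowly the lowest CTT library, but above every control library. For Vcam1 it was the highest of the 6, so not all members shared its deviation.

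Within libraries, Adgre1 stood lower relative to Cd163, Spic, Mrc1 and Cd5l in all CTT neutrophil libraries than in any control library. Its log2 ratio to Cd163 went from 1.75 ± 0.08 (SD, n = 3) to 1.06 ± 0.42 and its log2 ratio to Cd5l from 0.28 ± 0.09 to −0.30 ± 0.17. These were the only 4 of the 15 pairs without overlap between the neutrophil groups, each with exact permutation p = 0.1 (two-sided), the smallest possible, and 0.375 after adjustment over the pairs. All 4 contain Adgre1, so they are not independent, and the share among pairs of other genes was not computed. The other red pulp macrophage genes gave 0 calls among 24 (median log2 fold change 0.06), and the regulators 0 among 20 (median 0.15). The log2 fold changes of Hmox1 (0.54, SE 0.13, adjusted p by edgeR = 0.174) and of the protease gene Lgmn (0.58, SE 0.10, adjusted p by edgeR = 0.0823) did not pass. Summed neutrophil markers stood at 4156 to 6038 CPM in control and 7760 to 12762 CPM after CTT, with 3 of 12 genes rising, and of 9 inflammatory monocyte genes 1 rose, Vcan.

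Between the selected populations after CTT, all 6 members were higher in the monocytes than in the cells labelled neutrophils, in a fit of all 12 libraries. In that comparison 16.1% of 13732 tested genes were higher and 15.3% lower in edgeR. The selecting antibody and the time after CTT, 5 days against 12 h, differ together and cannot be told apart. This comparison shares its libraries with the other 2, so its values are set beside theirs and not added to them. Mrc1 differed most, with a log2 fold change of 2.14 with SE 0.24 (adjusted p by edgeR = 7.94e-05), a factor of 4.42. Adgre1 (1.83, SE 0.20) and Vcam1 (1.85, SE 0.19) followed, with edgeR adjusted p of 6.4e-05 and 3.91e-05. Cd163 (1.49, SE 0.18), Cd5l (1.45, SE 0.20) and Spic (1.32, SE 0.15) differed least, with edgeR adjusted p between 9e-05 and 0.000312. Every CTT monocyte library was above every CTT neutrophil library for each gene, as was so for 28.1% of tested genes. All 6 were also higher when replicate 1 of either group was left out.

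The other red pulp macrophage genes mostly went the same way, with 20 of 24 higher in the monocytes and 1, Fth1, lower (log2 fold change −0.67, SE 0.14, adjusted p by edgeR = 0.0041). Their median log2 fold change was 1.27, against 0.02 over all tested genes and 1.66 over the members. Kcna2 (2.68, SE 0.16), Fcna (2.43, SE 0.18), Slc40a1 (2.33, SE 0.20) and Mertk, a receptor for apoptotic cells (2.21, SE 0.20), had the smallest p. Among the regulators 7 were higher and 5 lower. Maf (1.84, SE 0.19) and Csf1r (1.55, SE 0.19) were higher, while Spi1 (−0.45, SE 0.09) and Nfe2l2 (−0.39, SE 0.10) were lower. Transcripts of other cell types also differed between these populations. Markers of marginal zone macrophages were higher in the monocytes for 3 of 5 genes, and markers of macrophages of other tissues for 5 of 7. The median log2 fold change over the latter was 2.08, above the members' median. Timd4 is in both of these lists, and Lyve1 is in the latter and in the endothelial list. Some genes of the latter were low in CTT neutrophils, such as Lyve1 (0.385 CPM) and Tmem119 (0.868 CPM). In the same list Timd4 stood at 48.5 ± 10.6 CPM against 8.54 ± 0.40 CPM, and the folate receptor gene Folr2 at 2.91 ± 1.12 against 0.434 ± 0.16 CPM. Stromal genes were higher for 4 of 10, led by the collagen gene Col3a1 (9.09 ± 2.82 against 0.361 ± 0.24 CPM), and endothelial genes for 2 of 11, Stab2 and Lyve1. T cell genes were lower for 6 of 7, with a median of −2.18, B cell genes for 3 of 9 and inflammatory monocyte genes for 3 of 9. Summed neutrophil markers stood at 4510 to 6094 CPM in the monocytes against 7760 to 12762 CPM in the cells labelled neutrophils, with 7 of 12 genes lower. The part of these differences in those of the members was not tested.

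Replicates of CTT monocytes varied more in the members than in most genes. The coefficient of variation of the 6 members lay between 19.5% (Cd5l) and 32.9% (Mrc1) in that group, where the median over 9241 genes of at least 10 CPM was 6.85%. Replicate 1 of that group had the highest value of every member, and the part of that library in this variation was not tested. In anti-Ly6G monocytes the coefficient of variation lay between 4.62% (Spic) and 16% (Cd163), against a median of 5.76%. In control neutrophils it lay between 4.1% (Vcam1) and 13.6% (Spic), under the median of 16.8% in that group. That median was the highest of the 4 groups, against 8.45% in CTT neutrophils. It includes control replicate 1, which stood apart in erythroid markers, and the part of that library in it was not tested. In CTT neutrophils Adgre1 (28.3%), Mrc1 (29.5%) and Cd5l (28.3%) varied more than Cd163 (7.95%), Spic (8.54%) and Vcam1 (13.2%).

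The genes whose levels followed each member most closely over the 6 monocyte libraries were found as those with the smallest root mean square difference of centred log2 CPM among 9349 genes. For Vcam1 they were Mertk (0.0363) and the complement gene C1qa (0.0431), both among the other red pulp macrophage genes. Tmem65 (0.0309) was among the nearest to Spic. For Adgre1 they were Tmem26 (0.0177) and Cmtm4 (0.036), and for Mrc1 the receptor gene Gfra2 (0.0414) and Vstm4 (0.0421). Cd163 was nearest to Dmpk (0.0788) and St6galnac2 (0.094), and Cd5l to Ulbp1 (0.0276) and Ctsd (0.0364), the gene of the lysosomal protease cathepsin D. Among the members, Adgre1 and Spic were closest (0.0823) and Cd163 and Cd5l farthest apart (0.456). Over the 6 neutrophil libraries and 9061 genes, the nearest genes were different, such as Amz1 for Adgre1 (0.0631), Lair1 for Cd5l (0.0725), Rdh10 for Vcam1 (0.03) and Pilra for Mrc1 (0.0698), and the closest members were Mrc1 and Cd5l (0.103). These are descriptions over 6 libraries that share the groups compared.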

How the data were processed

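RNA-seq of Ly6G-selected (neutrophil) and CCR2-selected (monocyte) mouse spleen cells gave 12 libraries in 4 groups of 3, grouped by title. For each cell type the authors deposited a table of whole-number counts per gene and a table of FPKM values, which are normalized for length and library total. The submitters' processing notes name HISAT2, HTSeq and the build mm10. Versions, annotation and strand setting are not stated in the sources used here. Every value column matched a sample (0 left out).

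Counts were tested in R 4.3.3 with edgeR 4.0.16: filterByExpr, TMM scaling, quasi-likelihood F test (two-sided), Benjamini-Hochberg adjustment over all tested genes, threshold 0.05. Neutrophils and monocytes were fitted separately (13058 and 13294 genes), and CTT monocytes against CTT neutrophils in a fit of all 12 libraries on the 16283 genes in both tables (13732 tested). SE is the absolute log2 fold change divided by the square root of F. Printed CPM are TMM-scaled over all 12 libraries. FPKM were used to compare levels between genes and, with limma 3.58.1 on log2(FPKM plus 1 or 0.1), as alternatives, which also included other scalings and filters, DESeq2 1.42.0, limma-voom, the replicate number as a block and leaving out each library. Steps were tested on simulated data. In a chi-square test over genes, no 2 libraries of the same group were alike within counting noise.

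The members and the 17 other gene lists were chosen with earlier results of these data known. Named genes are the members, up to 4 genes of a list with the smallest p in a comparison, the 2 genes nearest to each member in pattern, and other list genes named for their role, which were chosen after their values were seen. The values of 1 gene that this rule names are not reported here. Results of the lists not described in the report, with 0 calls in neutrophils unless given: with anti-Ly6G in monocytes, of macrophages of other tissues 2 of 7 tested fell, of stromal genes 1 of 10 rose and 1 fell, of dendritic cell genes 0 of 10 changed, of patrolling monocyte genes 5 of 9 rose and 3 fell, of T cell genes 2 of 7 rose and 1 fell, of erythroid genes 1 of 10 fell, and of platelet genes 1 of 7 rose. Between CTT monocytes and CTT neutrophils, 2 of 15 partner genes were higher and 4 lower, 4 of 7 erythroblastic island genes higher (Vcam1 among them), 1 of 7 eosinophil genes higher, 1 of 10 dendritic cell genes higher and 3 lower, 4 of 9 patrolling monocyte genes higher and 2 lower, 1 of 10 erythroid genes higher, and 0 of 7 platelet genes changed.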

Additional observations from a re-analysis of the deposited data

How the results depend on the processing

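In the neutrophils 74 genes rose and 0 fell in the edgeR test (1830 with an unadjusted p under 0.05). DESeq2 gave 455 and 107, the replicate block 4 and 1, limma on FPKM plus 1 gave 47 and 1, the same with a mean of at least 1 FPKM 49 and 1, and FPKM plus 0.1 gave 1 that fell. Leaving out a library gave 0 to 257 and 0 to 31. None of the members was called in any of the 17 alternatives, and Vcam1 turned to −0.0229 without CTT replicate 1 (−0.0229 to 0.174 when a library was left out). In the monocytes 1354 rose and 681 fell (66.5% of calls higher). Upper quartile scaling gave 1030 that fell (50.9% higher), DESeq2 1204 (56.5% higher) and the replicate block 1043, and leaving out a library gave 706 to 1687 that rose and 177 to 1168 that fell. The 5 members that fell were 3 to 5 when a library was left out and 5 in the other alternatives. Cd5l turned to 0.0742 without CTT replicate 1 and to 0.00034 without anti-Ly6G replicate 3 (−0.209 to 0.0742 when a library was left out), and its adjusted p lay between 0.365 and 0.999. Between CTT monocytes and CTT neutrophils all 6 members were higher in all 15 alternatives. Scaling by library totals gave 1220 genes lower in place of 2103, with 72.8% of calls higher in place of 51.2% and a median log2 fold change of all genes of 0.18 in place of 0.02. Same-numbered libraries did not deviate together throughout (r = 0.199, 0.00548 and 0.189 in neutrophils, 0.0651, −0.0267 and 0.0868 in monocytes). For unlike numbers r lay between −0.22 and 0.156 in neutrophils and between −0.104 and 0.0347 in monocytes. The highest r in each was thus between same-numbered libraries. The main tests did not take the replicate numbers to pair libraries, and the replicate block above is the alternative that did. The causes were not tested, except that fits without a library have fewer samples. Depth did not limit the members.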
